A study of Mus musculus with 14 samples.

Results

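The septins are a family of GTP-binding cytoskeletal proteins, and the count table held 9 members of the family that are described here: Sept2, Sept4, Sept5, Sept6, Sept7, Sept8, Sept9, Sept10 and Sept11 (now named Septin2 to Septin11), out of 49315 genes in all. They were taken by gene symbol, and Sept9 was set against its paralogs because it lies near Timp2 and was lower in TIMP2 knock-out (KO) than in wild-type (WT) microglia. Sept9 was thus chosen by its KO and WT levels in these libraries, so its difference is a description without a test, while the other 8 genes were taken by family name. Bulk RNA-seq was carried out on primary microglia from forebrains of C57BL/6 pups aged P6-P7 (a C57Bl/6J background in the study's methods), with both sexes pooled. There were 7 KO libraries from global TIMP2 KO pups and 7 WT libraries, each made from 5 pooled pups, so that no library is a single animal. The KO pups lacked TIMP2 in all their cells from the start of life, and both groups were sorted with CD11b beads and cultured briefly in serum before harvest.

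Septins join end to end into hetero-oligomers that assemble into filaments, rings and cages beneath the plasma membrane, where they act as scaffolds and diffusion barriers in cell division, phagocytosis and cell shape. They fall into groups named after septin 2, septin 3, septin 6 and septin 7, and the longest oligomers hold members of all of these groups. Members of 1 group can stand in for each other at the same position, whereas septin 7 is alone in its group. SEPT9, of the septin 3 group, binds microtubules and actin in many cell types, and its isoforms differ in their N termini. TIMP2 is a secreted inhibitor of matrix metalloproteinases.

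All members share a GTP-binding domain that opens with the P-loop, a short motif that holds the phosphates of the nucleotide. It is shown here because all 9 members hold it and because its second codon separates the septin 3 group, that of Sept9, from the other groups. The coding sequence of 1 transcript per gene was read from the GENCODE M21 transcripts (GRCm38). In the following lines, from 5′ to 3′ on the coding strand, the 24 bases in capitals are the P-loop codons and the 9 bases in lower case on each side are coding bases around them.
Sept9: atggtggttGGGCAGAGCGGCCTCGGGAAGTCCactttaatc
Sept3: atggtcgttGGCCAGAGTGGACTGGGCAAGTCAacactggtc
Sept12: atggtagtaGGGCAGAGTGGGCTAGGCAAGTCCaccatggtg
Sept2: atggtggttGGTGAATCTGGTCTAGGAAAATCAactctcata
Sept4: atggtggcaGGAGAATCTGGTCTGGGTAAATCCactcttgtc
Sept5: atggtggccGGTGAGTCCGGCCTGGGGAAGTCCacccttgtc
Sept7: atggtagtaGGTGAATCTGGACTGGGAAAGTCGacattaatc
Sept6: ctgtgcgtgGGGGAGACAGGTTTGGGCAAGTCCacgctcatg
Sept8: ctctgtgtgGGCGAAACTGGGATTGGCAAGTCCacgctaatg
Sept10: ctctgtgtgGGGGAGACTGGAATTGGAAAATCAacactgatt
Sept11: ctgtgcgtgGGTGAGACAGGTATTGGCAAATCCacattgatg

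The second codon of the motif was CAG in Sept9, Sept3 and Sept12, the septin 3 group, and GAG or GAA in the septins of every other group shown. The third codon was ACA or ACT in the septin 6 group (Sept6, Sept8, Sept10, Sept11) and a TCN or AGN codon in the others. Between 4 and 12 of the 24 P-loop bases differed from Sept9, with Sept12 the closest and Sept14 the farthest. Over the aligned coding bases, Sept3 was the most like Sept9 at 74.37% identity and Sept10 the least at 62.37%. The P-loop began at base 907 of the 1749 coding bases of Sept9, whereas in the 8 paralogs it began between base 130 and base 451. These likenesses are too short to move reads between members. Of all runs of 50 bases in the Sept9 transcripts, 0 occurred in a transcript of another gene, and Sept2 and Sept7 shared 6 such runs.

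The counts of Sept5 are uncertain for another reason. The exons of Gp1bb, a platelet glycoprotein gene, overlap 1902 bases of Sept5 exons on the same strand, which is 48.58% of them, and 80.45% of the runs of 50 bases in Sept5 transcripts occur in annotated transcripts of Gp1bb or Gm49601. A further Ensembl entry under the symbol Sept2 holds most of the 40.98% of runs that Sept2 shares with other genes, but that entry was not in the count table.

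The 14 libraries held between 38875344 and 48070236 counted reads, and no library stood apart in depth. Timp2 was the check of the labels. Its level was 119.6 to 129.2 CPM, the read count scaled to a common library size, in the 7 KO libraries and 397.6 to 495.1 CPM in the 7 WT libraries, so the KO level was 26.4% of the WT level and the groups did not overlap. Among the microglial markers, Csf1r and C1qb ran from 2242 to 3323 CPM and from 1374 to 1793 CPM over the 14 libraries, P2ry12 from 26.1 to 54.1 CPM, and Siglech and Tmem119 from 1.99 to 5.86 CPM and from 1.84 to 6.27 CPM. The 14 astrocyte markers summed to between 35.6 and 321.6 CPM and 16 neuronal markers to between 44.8 and 89.4 CPM. Some microglial markers were thus as low as single astrocyte markers, and the astrocyte sum varied 9.04-fold between libraries. Only 3 of 15700 genes tested passed an adjusted p of 0.05 between KO and WT (edgeR quasi-likelihood test with Benjamini-Hochberg adjustment), a background of 0.0191% of genes.

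Sept9 (ENSMUSG00000059248) lies on chromosome 11 of GRCm38, at chr11:117199661-117362325 on the plus strand, and 0.939 Mb separate its end from Timp2 (chr11:118301069-118355740, minus strand). Its level in the 7 KO libraries, from replicate 1 to replicate 7, was 97.4, 96.4, 92.7, 86.8, 88.9, 82.1 and 100.9 CPM. In the 7 WT libraries it was 107.2, 111.8, 119.6, 129.2, 109.9, 104.6 and 105.9 CPM. The highest KO library, replicate 7, lay below the lowest WT library, replicate 6, so the groups did not overlap, and the means were 92.2 ± 6.63 CPM in KO and 112.6 ± 8.86 CPM in WT (SD, n = 7 each). The KO level was 81.9% of the WT level, a log2 fold change of -0.29 with a standard error of 0.05. This absence of overlap was among the values that chose the gene. Over all genes tested, the KO libraries were all below the WT libraries for 12 of 15700, or 0.0764%.

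**Figure D1:**
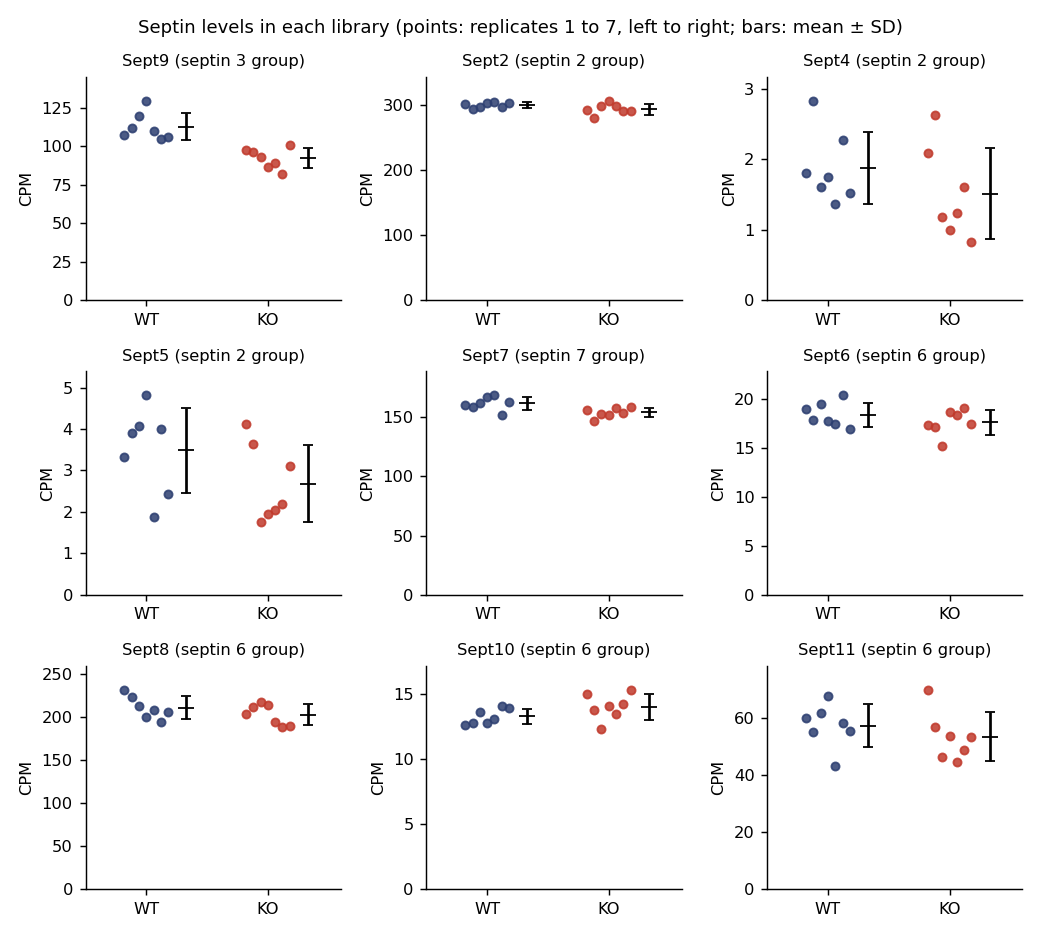
Level in CPM (linear axes from 0) of the 9 septins in each library, with 1 panel per gene, blue points for the 7 WT and red points for the 7 KO libraries, and black bars for the mean ± SD of each group. The KO points of Sept9 end at 100.9 CPM, below the lowest WT point at 104.6 CPM, whereas the points of the other 8 septins overlap between genotypes.

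Of the 8 paralogs, 6 lie on other chromosomes than Sept9, while Sept4 and Sept8 lie on chromosome 11 at 30.7 and 64.8 Mb from Timp2. All 9 members passed the filter on low counts. Of the 8 paralogs, 0 passed an adjusted p of 0.05 by edgeR, beside the background of 0.0191%, and 0 did so by DESeq2. At an unadjusted p of 0.05, 1 paralog passed by edgeR, as against 3.37% of all genes tested. By DESeq2, for which no share over all genes is given here, 1 passed. In KO, 7 of the 8 had a lower and 1 a higher fitted level, and their median log2 fold change was -0.07, beside 0.00 over all genes tested.

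Sept7, the lone member of its group (chromosome 9), was the paralog with the smallest p. Its level was 147.2 to 158.8 CPM in KO, with a median of 153.9 CPM, and 151.5 to 168.6 CPM in WT, with a median of 162.4 CPM. The WT library of replicate 6 lay among the KO libraries, and the other 6 WT libraries lay above all KO libraries. The log2 fold change was -0.07 with a standard error of 0.03 (edgeR, unadjusted p = 0.0184, adjusted p = 0.943), so the difference did not pass the test, and its 95% interval ran from -0.12 to -0.02 before adjustment.

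In the septin 2 group, Sept2 was by far the most abundant. This gene (chromosome 1), whose product binds non-muscle myosin, ran from 279.4 to 305.9 CPM in KO and from 294.3 to 304.5 CPM in WT, with medians of 291.8 and 301.3 CPM. All 7 WT libraries lay inside the range of the KO libraries. Its log2 fold change was -0.03 with a 95% interval of -0.07 to 0.01, the narrowest of all members. Sept4 (chromosome 11), known from the sperm annulus and from a splice form linked to apoptosis, was low, at 33 to 127 reads per library and 1.51 ± 0.65 CPM in KO against 1.88 ± 0.51 CPM in WT. Sept5 (chromosome 16), a septin of presynaptic terminals and platelets, was also low, at 1.75 to 4.11 CPM in KO with a median of 2.19 CPM, and 1.87 to 4.81 CPM in WT with a median of 3.89 CPM. Its exons are those that overlap Gp1bb, and the groups overlapped for both low genes. The log2 fold changes of Sept4 and Sept5 were -0.31 and -0.38, as large as that of Sept9, but their standard errors were 0.25 and 0.24 and neither passed the test (edgeR, adjusted p = 0.943 for both). In this fit, a change of the size seen in Sept9 was not detectable for these low genes at their spread.

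In the septin 6 group, whose members lie next to septin 7 in the oligomer, Sept8 was the most abundant. Sept8 (chromosome 11) ran from 188.6 to 216.6 CPM in KO and from 193.4 to 231.6 CPM in WT. Sept6 (chromosome X) ran from 15.2 to 19.0 CPM in KO and from 16.9 to 20.4 CPM in WT. Sept11 (chromosome 5), an actin-associated septin studied in phagocytosis and at synapses, had the widest relative spread among the abundant members, from 44.5 to 70.0 CPM in KO and from 43.2 to 67.5 CPM in WT, with medians of 53.2 and 58.1 CPM. The groups overlapped for all of these genes, with log2 fold changes of -0.06 for Sept8, -0.06 for Sept6 and -0.10 for Sept11.

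Sept10 (chromosome 10), another member of the septin 6 group, was the only one of the 9 with a higher mean in KO. It ran from 12.3 to 15.4 CPM in KO and from 12.7 to 14.0 CPM in WT, with means of 14.0 ± 1.00 and 13.3 ± 0.59 CPM. The log2 fold change was 0.08 with a standard error of 0.05 and did not pass the test (edgeR, adjusted p = 0.943).

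The family holds 4 further genes outside the 9 members. Sept3, the neuronal septin closest to Sept9 in sequence (chromosome 15), was at 5.943 ± 1.604 CPM in KO and 7.486 ± 1.529 CPM in WT, with overlapping groups, a log2 fold change of -0.33, a standard error of 0.17 and an adjusted p of 0.943 by edgeR. Sept1, of lymphoid cells, was at 0.69 ± 0.14 CPM in KO and 0.62 ± 0.11 CPM in WT. Sept12, a testis septin, had 2 reads over the 14 libraries and Sept14 had 1, and neither could be tested.

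The levels of different septins were compared per kilobase of merged exons. In WT, the order was Sept2 at 37.6 ± 0.50 CPM per kb, Sept8 at 34.6 ± 2.16, Sept9 at 14.9 ± 1.17, Sept7 at 13.9 ± 0.49, Sept11 at 6.05 ± 0.80, Sept10 at 4.27 ± 0.19 and Sept6 at 1.86 ± 0.12 (SD, n = 7). Below these came Sept3, Sept5, Sept4 and Sept1, all under 1.2 CPM per kb on average. Each septin group was thus represented by at least 1 abundant gene, and Sept9 supplied nearly all of the septin 3 group. Sept2 was above Sept8 in 6 of 7 WT libraries and their ranges overlapped, and no test of the order was made. The same held for Sept9 above Sept7 and for Sept3 above Sept5, each the order in 6 of 7 WT libraries with overlapping ranges. Sept5 was above Sept4 in 7 of 7 WT libraries, although their ranges over libraries overlapped.

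In KO, Sept7 and Sept9 changed places, with Sept7 at 13.2 ± 0.34 CPM per kb and Sept9 at 12.2 ± 0.88 CPM per kb, and Sept7 was above in 6 of 7 libraries with overlapping ranges. With the longest transcript as the length, Sept9 came after Sept7 in both genotypes, at place 4, so its place in WT depends on the length used. The lengths are the same in both genotypes and cancel from the relative change of the ratio of the genes. With merged exons, the Sept9 level per kb was 107.0 ± 6.92% of that of Sept7 in WT and 92.0 ± 6.70% in KO.

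**Figure D2:**
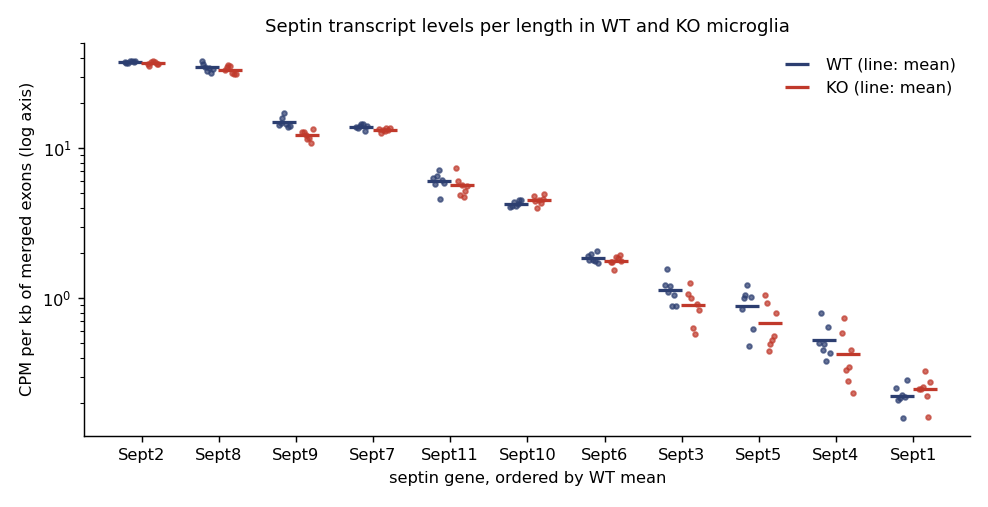
Level of 11 septins in CPM per kb of merged exons (log axis), ordered by the WT mean, with a point for each of the 7 WT (blue) and 7 KO (red) libraries and a line for each group mean. Sept2 and Sept8 lead at more than 30 CPM per kb, Sept9 and Sept7 follow close together, and Sept9 falls from 14.9 to 12.2 CPM per kb between WT and KO.

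As a share of the reads on all 13 septin genes, Sept9 made up 12.7 ± 0.80% in WT and 11.0 ± 0.69% in KO, a difference of -1.69 percentage points. The KO libraries ran from 10.2 to 12.1% and the WT libraries from 11.8 to 14.2%, so on this scale the highest KO and lowest WT libraries overlapped. The summed level of the 13 genes was 838 ± 19.1 CPM in KO and 887 ± 21.03 CPM in WT, and without Sept9 it was 746 ± 16.5 and 775 ± 16.0 CPM. Per length, the septin 3 group made up 13.8 ± 0.88% of the family in WT and 11.9 ± 0.80% in KO, the septin 2 group 33.9 ± 0.81% and 34.8 ± 0.89%, the septin 6 group 40.3 ± 1.21% and 41.2 ± 1.09%, and the septin 7 group 12.0 ± 0.42% and 12.1 ± 0.49%. The shares sum to the whole, so a lower share of 1 group raises the others.

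The genes around each septin were then set beside it, as a description. Among the 5 nearest tested genes on each side of Sept9, 0 of 10 passed an adjusted p of 0.05 by edgeR, and 7 were lower and 3 higher in KO. An unadjusted p under 0.05 by edgeR was found for 3 of 10, beside 3.37% of all genes tested. The median log2 fold change of the 10 was -0.02 and 0 of 10 was as low as that of Sept9. Sept9 was chosen for its low KO level in the same libraries, so this count says little. The lowest of the 10, Tk1, was close to Sept9 at -0.26, with a standard error of 0.25. On the side away from Timp2, Sec14l1, Snhg20 and Mgat5b had log2 fold changes of -0.02, -0.03 and 0.00. On the side towards Timp2, Tnrc6c, which acts in microRNA silencing, was at -0.09 with a standard error of 0.04 (edgeR, unadjusted p = 0.0317), and the transmembrane channel-like genes Tmc6 and Tmc8 were at 0.09 and 0.36 (edgeR, unadjusted p = 0.0486 and 0.00169). None of these passed after adjustment (edgeR, adjusted p = 0.943 each). Tmc8 was the opposite of Sept9 in direction, at 26.1 ± 3.62 CPM in KO and 20.3 ± 2.59 CPM in WT. Tmc6 and Tmc8 overlap in the annotation on opposite strands, and the strand setting of the counting is not given in the sources used here, so reads on the overlap cannot be told apart.

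Between Sept9 and Timp2 there were 14 tested genes, of which 9 were lower and 5 higher in KO. None passed an adjusted p of 0.05 by edgeR or DESeq2, and 4 of 14 had an unadjusted p under 0.05 in each of the 2 tools. The latter share over all genes was 3.37% by edgeR and is not given here for DESeq2. By edgeR these 4 included Tnrc6c, Tmc6 and Tmc8, already counted among the nearest neighbours. A log2 fold change as low as that of Sept9 was found in 1 of the 14, Gm11725 at -0.47 with a standard error of 0.40. With 10 neighbours on each side, which include the nearest neighbours already counted, 5 of 20 had an unadjusted p under 0.05 by edgeR and 0 passed after adjustment. The highest of the 20 was St6galnac2, a sialyltransferase gene on the side away from Timp2, at 0.21 to 5.23 CPM in KO and 0.07 to 0.69 CPM in WT, with overlapping groups and a log2 fold change of 2.79 (edgeR, unadjusted p = 0.000371, adjusted p = 0.561). Around the 8 paralogs, the median log2 fold change of the 10 neighbours lay between -0.02 and 0.01. Of these neighbours, 10 for each paralog, 0 passed an adjusted p of 0.05 by edgeR and 1, near Sept10, had an unadjusted p under 0.05. The latter share over all genes tested was 3.37%.

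**Figure D3:**
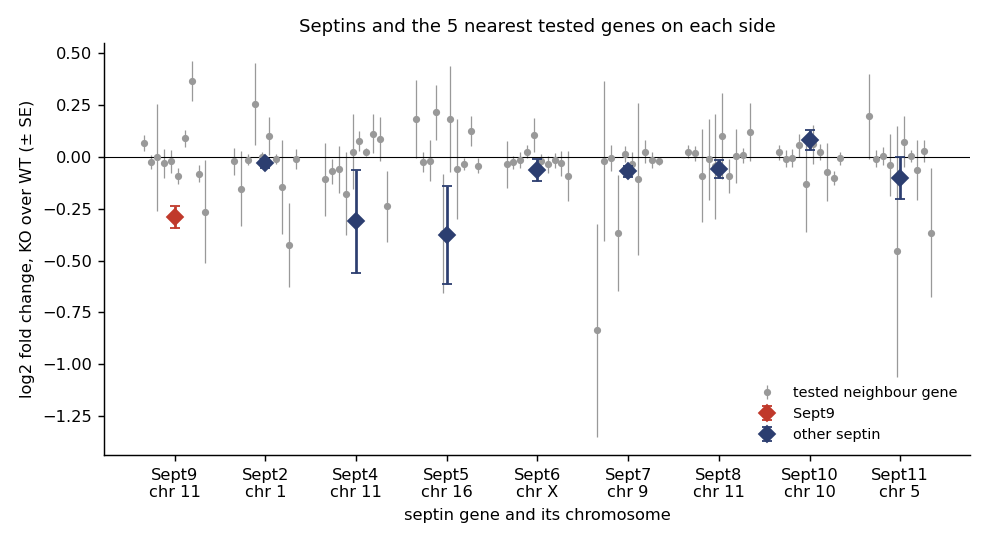
Log2 fold change of KO over WT with its standard error for Sept9 (red diamond), the 8 paralogs (blue diamonds) and the 5 nearest tested genes on each side of each septin (grey points). Sept9 at -0.29, which was chosen for its low KO level, lies below its 10 neighbours. Sept4 and Sept5 are as low but have standard errors of about 0.24.

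Because RNA of other brain cells varied between libraries, the 9 septins were compared with 7 marker lists within genotypes, after subtracting each genotype's mean log2 CPM. Over the 63 pairs, 4 passed an adjusted permutation p of 0.05 by Pearson's r (100000 two-sided permutations within genotypes, n = 14 libraries). In a bulk sample, fewer cells of a type and less RNA per cell cannot be told apart. Sept5 had the strongest relation with the astrocyte list, with r = 0.85 (permutation p = 0.00039, adjusted p = 0.0246) and rho = 0.85 (permutation p = 0.00055, adjusted p = 0.0346). Without WT replicate 4 and KO replicate 5, the libraries farthest from the median, r was 0.84 and the adjusted permutation p was 0.113. Sept5 also varied with the neuron list, with r = 0.81 (permutation p = 0.00154, adjusted p = 0.0398) and rho = 0.76 (permutation p = 0.00379, adjusted p = 0.0456), and without KO replicate 5 and WT replicate 2 r was 0.85 and the adjusted permutation p was 0.0724. With each gene of the list weighted equally, the adjusted permutation p of this pair was 0.0524. With the oligodendrocyte lineage list Sept5 passed by rho only, at 0.75 (adjusted permutation p = 0.0456), with r = 0.71 (adjusted permutation p = 0.0533).

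Sept11 varied with the astrocyte list at r = 0.75 (permutation p = 0.00253, adjusted p = 0.0398) and rho = 0.69 (permutation p = 0.0096, adjusted p = 0.0605). Without WT replicate 4 and KO replicate 5 its r was 0.64 (adjusted permutation p = 0.157). Sept11 also had an r of -0.69 (adjusted permutation p = 0.0645) and a rho of -0.70 (adjusted permutation p = 0.0596) with the microglia list. Neither passed the threshold. Sept5 and Sept11, of different septin groups and on different chromosomes, also varied with each other at r = 0.86 (n = 14 libraries, within genotypes). The fourth pair was Sept8 with the list of vascular and fibroblast genes, at r = -0.70 (permutation p = 0.00226, adjusted p = 0.0398) and rho = -0.73 (permutation p = 0.00518, adjusted p = 0.0456). That sign turned to r = 0.68 when each gene of the list was weighted equally, so no direction can be given for it. Flt1 and Kdr, genes of receptors for vascular growth factors, were the most abundant of that list in KO, at 30.3 ± 9.82 and 16.8 ± 2.63 CPM.

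Sept9 varied with the astrocyte list at r = 0.73 (permutation p = 0.00499, adjusted p = 0.0533) and rho = 0.66 (permutation p = 0.0166, adjusted p = 0.0948), which did not pass the threshold, and r was 0.63 without WT replicate 4 and KO replicate 5. Within the KO libraries alone r was 0.80 and within the WT libraries 0.69. A doubling of the astrocyte sum went with 0.08 more log2 CPM of Sept9, and with 0.43 more of Sept5. The astrocyte sum was 35.6 to 169.1 CPM in KO, with a median of 60.2 CPM, and 40.5 to 321.6 CPM in WT, with a median of 112.8 CPM. All 12 astrocyte markers that could be tested had a negative log2 fold change, with a median of -0.66, but 0 of them passed the test by edgeR at an adjusted or an unadjusted p of 0.05, or by DESeq2. The glial filament gene Gfap ran from 2.54 to 84.5 CPM and the water channel gene Aqp4 from 1.16 to 52.2 CPM over the 14 libraries.

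The part of this RNA in the Sept9 difference was not tested apart from fits with a covariate. With the log2 astrocyte sum as a covariate in edgeR, an alternative chosen after seeing the data, the log2 fold change of Sept9 was -0.24 (standard error 0.04). With the neuron list it was -0.25 (standard error 0.05), against -0.29 (standard error 0.05) without a covariate. With the astrocyte covariate the log2 fold change of Sept5 went from -0.38 to -0.12 (standard errors 0.24 and 0.14). That of Sept11 went from -0.10 to 0.00 (standard errors 0.10 and 0.07). With the neuron covariate Sept5 was at -0.12 (standard error 0.16). Sept4 went from -0.31 to -0.11 with that covariate (standard errors 0.25 and 0.18). Of the neuron list, 14 of 16 tested genes had a negative log2 fold change (median -0.27), as did 9 of 12 of the oligodendrocyte lineage list (median -0.28), while 12 of 14 microglial markers had a positive one (median 0.04). These lists were not independent of each other, since within genotypes the astrocyte sum had an r of 0.88 with the oligodendrocyte lineage sum and 0.72 with the neuron sum over the 14 libraries. Sept9 had an r of 0.69 with the oligodendrocyte lineage list (adjusted permutation p = 0.057) and a rho of 0.60 (adjusted permutation p = 0.141). With equally weighted genes r was 0.56 (adjusted permutation p = 0.178), and without WT replicate 4 and KO replicate 4 it was 0.52 (adjusted permutation p = 0.236). The genes of the other 6 marker lists gave 0 calls at an adjusted p of 0.05 by edgeR and 0 at an unadjusted p of 0.05, and DESeq2 gave 0 and 1, the latter in the neuron list.

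**Figure D4:**
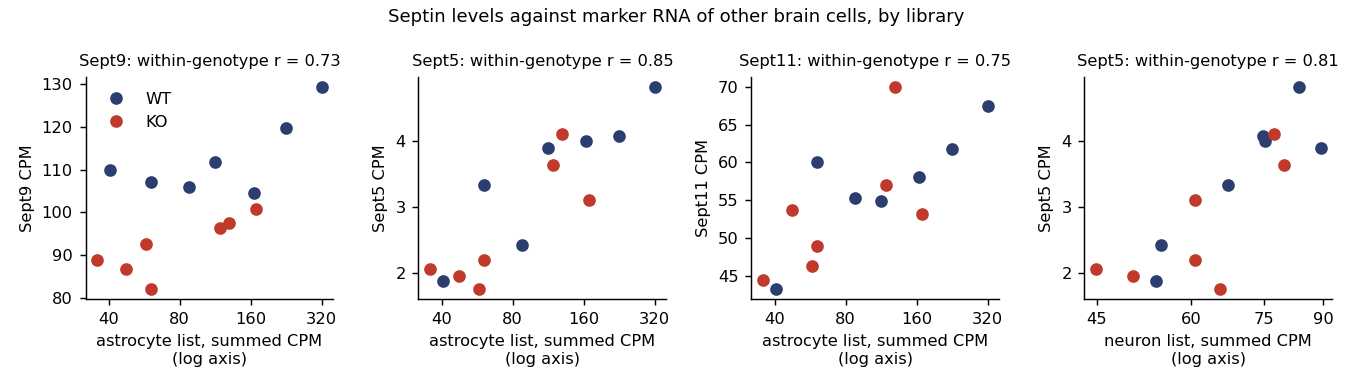
Level of a septin (CPM) against the summed CPM of a marker list (log axis), for Sept9, Sept5 and Sept11 with the astrocyte list and Sept5 with the neuron list, with a point for each WT (blue) and KO (red) library. All 4 panels rise from left to right, and the astrocyte sums run from 35.6 to 169.1 CPM in KO and from 40.5 to 321.6 CPM in WT.

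The other members moved with other lists or with none. Sept4 had an r of 0.71 with the neuron list and Sept2 an r of -0.70, each with an adjusted permutation p of 0.0533 (n = 14). By rho, 0.73 and -0.75, both passed (adjusted permutation p = 0.0456), and Sept4 also passed with equally weighted genes (r = 0.84, adjusted permutation p = 0.0145). With the proliferation list, Sept8 had an r of -0.71 (adjusted permutation p = 0.0533) and Sept7 an r of 0.57 (adjusted permutation p = 0.0819), and both passed by rho (adjusted permutation p = 0.0456). Sept6 had no r beyond 0.38 in size with any of the 7 lists.

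**Figure D5:**
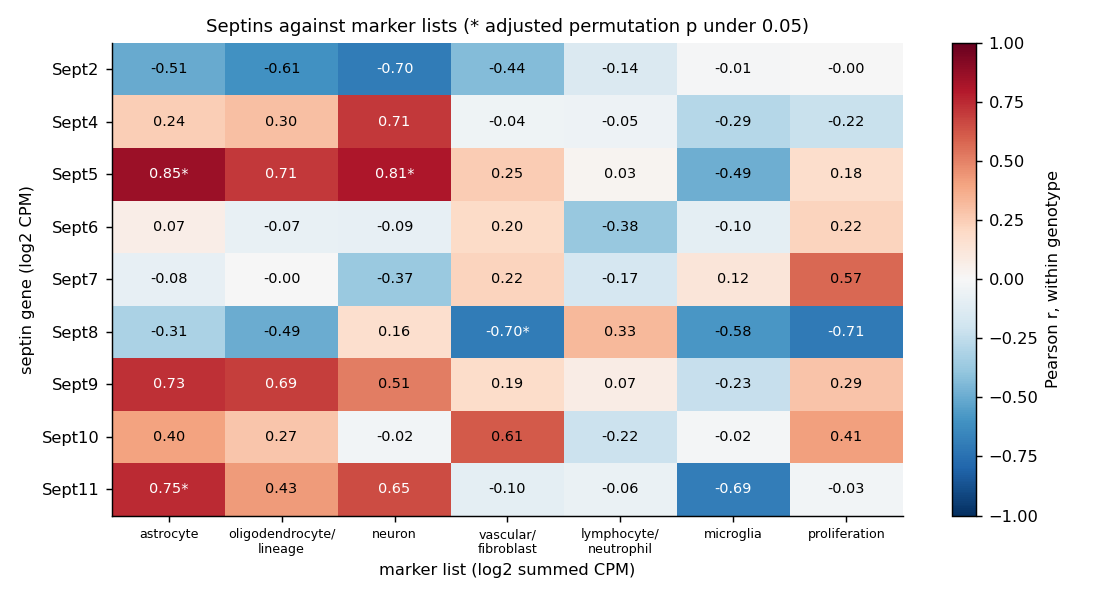
Pearson's r between the log2 CPM of each septin (lines) and the log2 summed CPM of each marker list (columns), within genotypes over 14 libraries, with red for positive and blue for negative values and a star for an adjusted permutation p under 0.05. Sept5, Sept9 and Sept11 share positive values with the astrocyte list, from 0.73 to 0.85, while Sept2 is negative with the neuron list.

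The genes most like each member in their variation within genotypes, over all 15700 genes tested and 14 libraries, differed between members. For Sept9 they were Cfap300 (r = 0.90), Tgfb1i1 (0.90), Acot7 (0.90), Ccl27a (0.89) and Shtn1 (0.89), and of these only Shtn1 had more than 9 CPM on average. For Sept5 they were Pdzd2, Tm4sf1 and Osbpl6 (0.96 to 0.97), and for Sept4 they included Atp2b2, a calcium pump gene of neurons, and Sphkap (0.96 and 0.95). For Sept11 they were Ttc3, Tmem63b and Ctnnb1 (0.96), and for Sept8 Tmem38b, Pcyt1a and the immune kinase gene Syk (0.94 to 0.95). None of these genes was a septin. They were picked for the highest r, and no test was made of it.

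The partners of septins were measured as a list of 17 genes, which held the Borg proteins (Cdc42ep genes) that bind septins under control of CDC42, the anchor anillin (Anln), non-muscle myosins, rhotekins and the septin-dependent calcium entry genes Stim1 and Orai1. Of the 16 that could be tested, 0 passed an adjusted p of 0.05 by edgeR in either direction, 0 had an unadjusted p under 0.05 by edgeR or DESeq2, and 5 were higher and 11 lower in KO. Their median log2 fold change was -0.01. Over all 15700 genes tested, 7983 were higher and 7717 lower in KO. By edgeR, 0.0191% of all genes passed an adjusted and 3.37% an unadjusted p of 0.05. The smallest p values of the partner list belonged to Rtkn, Orai1 and Cdc42. Rtkn was at 0.86 ± 0.24 CPM in KO and 1.09 ± 0.31 CPM in WT, Orai1 at 93.0 ± 7.26 and 88.7 ± 5.39 CPM, and Cdc42 at 955.8 ± 22.66 and 977.2 ± 23.98 CPM.

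A list of 18 genes of cytokinesis, the step of cell division in which septins were discovered, gave a like picture. All 18 were tested, 0 passed an adjusted p of 0.05, 0 had an unadjusted p under 0.05 by edgeR or DESeq2, and 3 were higher and 15 lower in KO. Their median log2 fold change was -0.09. Over all 15700 genes tested, 7983 were higher and 7717 lower in KO. By edgeR, 0.0191% of all genes passed an adjusted and 3.37% an unadjusted p of 0.05. The proliferation list was also mostly lower, with 1 higher and 15 lower of 16 tested genes and a median of -0.11. Racgap1, of the central spindle, was at 13.9 ± 5.69 CPM in KO and 16.2 ± 3.50 CPM in WT. Rock2 and Rock1, kinases of the contractile ring, were at 143.6 ± 4.44 and 112.9 ± 4.12 CPM in KO and at 146.2 ± 5.34 and 110.7 ± 5.50 CPM in WT.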

How the data were processed

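Bulk RNA-seq counts of 14 libraries, 7 per genotype, were used. Per the labels, the authors trimmed reads with Trimmomatic 0.36, aligned them to GRCm38 with STAR 2.5.2b and counted reads per gene with featureCounts of Subread 1.5.2, and the deposited values are raw counts. The annotation release and strand setting are not given in the sources used here. The study modelled a batch, which the labels do not give per library, so genotype was the only term here.

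Symbols and lengths came from GENCODE M21, which matched 49056 of 49315 genes. Genes were filtered with filterByExpr (minimum count 10, total 15), leaving 15700, scaled by TMM and tested by edgeR 4.0.16 quasi-likelihood fits, with Benjamini-Hochberg adjustment over all genes. CPM values use TMM library sizes, and log2 CPM a prior count of 1. A standard error is the log2 fold change divided by the root of F, and 95% intervals are 1.96 standard errors each way. Marker relations used 100000 permutations within genotypes (numpy 2.4.6). DESeq2 1.42.0 and the other alternatives are given in the closing section. The fits were tested on simulated data.

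The members and gene lists were chosen with earlier results of these data known. Genes were named as members, family, Timp2, the 3 nearest tested genes on each side of Sept9, the genes with the highest r to a member (5 for Sept9, 3 otherwise), and, per list, genes past the threshold, the 3 smallest p and defining markers. Gm11725, St6galnac2, Tk1, Flt1 and Kdr were named after their values were seen. The labels describe each library as its own pool of 5 pups, so p-values measure the spread between pools. A gene that this rule would name for Sept4 is not reported here.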

Additional observations from a re-analysis of the deposited data

Results flagged for a closer look

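No septin had a library that stood apart from its group by Dixon's test of a gap, for which chance gives about 1 in 20 groups, over the 36 groups of 7 libraries examined for septins and marker lists. The list of lymphocyte and neutrophil genes did in WT replicate 2, which summed to 11.4 CPM, while the other 6 WT libraries ran from 0.51 to 3.78 CPM. In KO, replicates 3 and 7 were higher still, at 16.9 and 12.6 CPM beside a KO median of 2.69 CPM. A test of a single gap can miss high libraries that lie in the same group. Sept9 was at 111.8 CPM in WT replicate 2, within the range of the other WT libraries.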

How the results depend on the processing

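The log2 fold change of Sept9 kept its direction in all 22 alternatives, from -0.31 to -0.24, and from -0.31 to -0.26 with 1 library left out. The count of paralogs past the threshold was 0 in all 22, and each paralog kept its sign. The difference in the Sept9 share of septin reads ran from -1.86 to -1.44 percentage points with 1 library left out. The count of genes past the threshold was 3 to 4 with 1 library left out, 15 with DESeq2 and 26 with DESeq2 and the replicate block. With the replicate block in edgeR it was 3, and Sept9 was at -0.29. That block took the standard error from 0.25 to 0.15 for Sept4, from 0.10 to 0.07 for Sept11 and from 0.045 to 0.034 for Sept8. Those of the other members changed less. With the block in edgeR the log2 fold change of Sept4 was -0.37, against -0.31 without it, and Sept4 still did not pass an adjusted p of 0.05. Same-numbered KO and WT libraries correlated between -0.20 and 0.74 in their deviations from the genotype means, with 3 of 7 pairs over 0.1. Of the 14 libraries, 3 correlated best with their own number. The numbers were not taken as pairs in the main fit or the marker permutations. A batch shared by same-numbered libraries was modelled only in the fits with the replicate block, and its presence was not tested. Replicate 5 had the lowest astrocyte sum in each genotype, at 35.6 CPM in KO and 40.5 CPM in WT. No list of partner or cytokinesis genes gained a call. Sept9 took place 4 rather than place 3 in the WT order with the longest transcript as length. Beside the 4 relations with marker lists by Pearson's r, 2 passed with equally weighted genes, of which 1 (Sept5 with astrocytes) was among the 4. By Spearman's rho (added after seeing the data) 8 passed, of which 3 were among the 4. Without the 2 libraries farthest from the median, which leaves fewer libraries, 0 passed. Sept8 with the vascular list turned to r = 0.68 with equal weights. The low counts of Sept4 and Sept5, 33 to 201 reads a library, limit their precision, and the batch of the study was not analysed here.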
